A study of Mus musculus with 24 samples.

Results

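Cyp2b9, Cyp2b10 and Cyp2b13, 3 cytochrome P450 genes of the mouse Cyp2b family, and Nr1i3 and Nr1i2, the genes of the nuclear receptors CAR and PXR, were followed through 24 mouse liver libraries. The 5 genes were chosen by name, with earlier results of these libraries in view, from 34945 named genes measured as TPM. TPM corrects reads for transcript length and expresses each gene relative to all others in its library, so it says nothing of absolute amounts. Because the choice used these values, the levels of the 5 genes are given as a description, and no p-value is attached to them.

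CAR and PXR are xenobiotic-sensing nuclear receptors that bind DNA as partners of the retinoid X receptors. CAR waits in the cytoplasm of hepatocytes and moves to the nucleus on activation, while PXR is activated by direct binding of drugs, steroids and bile acids. Both raise the transcription of genes for drug oxidation, conjugation and transport. Cyp2b10 is the classic CAR target of mouse liver, and Cyp2b9 and Cyp2b13 are better known as genes expressed more in female than in male liver, under the control of growth hormone.

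The libraries came from whole liver, so fewer cells of a type and less RNA per cell cannot be told apart. They form 8 groups of 3, made of 4 genotypes on a high-fat diet (HFD) or a regular diet (RD). LFPKO livers are labelled FoxO1-/-; PPAR{alpha}-/-, LFKO livers FoxO1-/-, LPKO livers PPAR{alpha}-/- and WT livers FoxO1lox/lox; PPAR{alpha}lox/lox. Deletion was driven by an Albumin-cre transgene, which is active in hepatocytes and not in most other liver cells, and is stated to be constitutive for FoxO1. WT livers carry the floxed alleles, with no Cre transgene stated. FoxO1 is a transcription factor restrained by insulin, and PPARα is the fatty-acid-sensing nuclear receptor of liver. Diets were given for 3 weeks, and the mice were fasted for 4 h. Replicates are numbered but not stated to be separate mice, so p-values measure only the spread between these samples. The labels used here state neither sex nor age.

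Foxo1 was at 0.250 to 0.484 TPM in the 12 LFPKO and LFKO libraries and at 4.06 to 9.94 TPM in the 12 LPKO and WT libraries, as labelled. Ppara was at 57.5 to 87.3 TPM in LPKO and LFPKO libraries and at 37.1 to 68.8 TPM in LFKO and WT libraries. The deleted part of Ppara is not given, so a gene-level TPM does not check that label, and PPARα genotypes are given as labelled throughout. All 9 hepatocyte markers were found, with Alb at 19027 TPM or more in every library. Of 5 fat cell markers, Lep was at 0 in all 24 libraries and Adipoq in 19 (at most 0.126 TPM), Plin1 reached 0.0603 TPM, and Fabp4 (3.09 to 8.78 TPM) and Cidec (0.343 to 6.29 TPM) were found in all. Major urinary protein (Mup) transcripts, the abundant secreted proteins of mouse liver, took 5.06 to 30.7% of a library. On HFD they took 6.52 to 17.7% in LFKO and 20.1 to 30.7% in WT libraries. A larger share of such transcripts lowers the TPM of all other genes, and the median log2 change of all tested genes was -0.23, -0.11, -0.22 and -0.29 for HFD over RD in LFPKO, LFKO, LPKO and WT livers. For LFKO and LPKO against WT on HFD it was 0.21 and 0.11, and for LFPKO against LFKO on HFD it was -0.13. Values after rescaling by median-of-ratios factors are called rescaled below.

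The 3 Cyp2b genes lie in a row on the plus strand of chromosome 7 in the GENCODE M21 annotation of GRCm38. Cyp2b10 (ENSMUSG00000030483) is at chr7:25897620-25926624, Cyp2b13 (ENSMUSG00000040583) at chr7:26061497-26096197 and Cyp2b9 (ENSMUSG00000040660) at chr7:26173411-26210661. Nr1i3 (ENSMUSG00000005677) is on the plus strand at chr1:171213970-171220701, and Nr1i2 (ENSMUSG00000022809) on the minus strand at chr16:38248323-38294824. The promoter windows of the 3 Cyp2b genes are shown because the highest group means of Cyp2b9 and Cyp2b13 were in LFKO livers and those of Cyp2b10 in RD livers. They are RefSeq sequences of GRCm38.p6 on the plus strand, each with 250 bases before and 50 bases after the annotated start, for Cyp2b9 at chr7:26173159-26173458, for Cyp2b13 at chr7:26061245-26061544 and for Cyp2b10 at chr7:25897408-25897707. Capitals mark the bases that differ between Cyp2b9 and Cyp2b13 and the nuclear receptor half-site AGGTCA.
Cyp2b9: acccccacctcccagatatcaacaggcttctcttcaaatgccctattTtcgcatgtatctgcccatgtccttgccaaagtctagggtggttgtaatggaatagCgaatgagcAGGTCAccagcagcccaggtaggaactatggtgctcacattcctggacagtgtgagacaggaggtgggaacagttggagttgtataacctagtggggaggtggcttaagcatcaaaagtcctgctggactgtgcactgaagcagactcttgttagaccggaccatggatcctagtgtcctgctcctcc
Cyp2b13: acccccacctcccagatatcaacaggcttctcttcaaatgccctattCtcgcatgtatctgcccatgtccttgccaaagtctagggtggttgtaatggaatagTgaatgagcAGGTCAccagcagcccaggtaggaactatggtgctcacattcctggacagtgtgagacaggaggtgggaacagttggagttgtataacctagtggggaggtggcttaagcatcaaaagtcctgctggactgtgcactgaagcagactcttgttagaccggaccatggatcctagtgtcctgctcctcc
Cyp2b10: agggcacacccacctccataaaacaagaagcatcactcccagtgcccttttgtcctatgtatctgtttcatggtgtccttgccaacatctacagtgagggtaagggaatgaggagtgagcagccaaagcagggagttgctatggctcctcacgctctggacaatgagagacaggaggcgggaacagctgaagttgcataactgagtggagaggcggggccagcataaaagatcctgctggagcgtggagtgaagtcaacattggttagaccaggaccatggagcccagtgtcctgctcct

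The Cyp2b9 and Cyp2b13 windows were identical at 298 of 300 bases (99.3%). The differences were T48C and C104T, written with the Cyp2b9 base first and the position counted from 1 at the 5′ end of the window. Cyp2b10 was identical to either at 220 of 289 aligned bases (76.1%). AGGTCA, the half-site that CAR, PXR, PPARα and the retinoid X receptors recognise, stood once in the Cyp2b9 and Cyp2b13 windows, at bases 113 to 118, and not in that of Cyp2b10. It was found in 16.04% of the 27025 promoter windows of the RefSeq table, searched on both strands. The C/EBP-type motif TTGCNNAA, present in 10.8% of windows, matched once in each of the 3 genes, at bases 71 to 78 in Cyp2b9 and Cyp2b13 and at bases 193 to 200 in Cyp2b10. Searched in the same way were direct repeats of AGGTCA with 4 bases (0.0111% of windows) or 1 base (0.0444%) between them, which overlap the single half-site by construction, the forkhead motif GTAAACA (3.55%) and the STAT5 motif TTCNNNGAA (8.47%). None of these 4 matched in the windows of the 5 genes, and AGGTCA and TTGCNNAA matched in neither Nr1i3 nor Nr1i2. The known CAR-responsive enhancer of Cyp2b10 lies farther upstream than these windows reach.

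Cyp2b9, which encodes a steroid- and drug-oxidising P450, was found in quantity in livers that lacked FoxO1 alone, on either diet. On HFD it was at 8.69, 50.7 and 153 TPM in LFKO livers, against 2.13, 0.138 and 0.440 TPM in WT livers. On RD it was at 122, 80.2 and 50.1 TPM in LFKO livers, against 1.501, 1.36 and 2.85 TPM in WT livers. Every LFKO library stood above every WT library of its diet, and on HFD the LFKO libraries differed widely among themselves. The log2 differences over WT, on the log2(TPM + 1) scale, were 4.62 ± 0.68 on HFD and 4.82 ± 0.68 on RD (SE). As ratios of mean TPM they were 78.2 and 44.1, with 70.6 ± 74.0 TPM in LFKO and 0.904 ± 1.08 TPM in WT livers on HFD, and 83.9 ± 35.8 TPM in LFKO and 1.90 ± 0.825 TPM in WT livers on RD (SD, n = 3 each). Groups separated upward for 24.6% of all 10551 tested genes in this comparison on HFD and for 19.4% on RD, so the separation alone is common. Without replicate 1 of HFD LFKO, whose Mup share was 17.7% against 10.9 and 6.52% in replicates 2 and 3, the HFD difference was 5.69, and without replicate 3 it was 3.70. The part of the Mup share in this was not tested.

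In livers labelled as lacking PPARα as well, Cyp2b9 was near the level of WT livers. It was at 0, 0 and 1.40 TPM in LFPKO livers on HFD and at 0.0986, 2.32 and 0.358 TPM in LFPKO livers on RD, which overlaps the WT values on each diet. LFPKO minus LFKO was -4.99 ± 0.68 on HFD and -5.55 ± 0.68 on RD, without overlap, a separation downward that 17.0 and 17.3% of all tested genes shared. The departure of LFPKO from the sum of both single knockouts was -4.66 ± 0.96 on HFD and -4.46 ± 0.96 on RD. LPKO livers had 1.33, 0.0786 and 0.0208 TPM on HFD, which overlaps WT, and 0.513, 0.205 and 0.300 TPM on RD, below each WT library there (-1.09 ± 0.68; 10.1% of tested genes separated downward). These levels are so low that the size of the RD difference depends on the pseudocount of 1 TPM.

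Over both diets, the 6 LFKO libraries spanned 8.69 to 153 TPM of Cyp2b9, with a median of 65.4, and the other 18 spanned 0 to 2.85 TPM, with a median of 0.399. The lowest LFKO library was 3.05 times the highest of the others. Among the 10551 tested genes, 21 (0.199%) stood higher in all 6 LFKO libraries than in all 18 others. Cyp2b9 averaged 0.836 TPM over those 18 libraries, so it reached the mean of 1 TPM needed for testing only through LFKO livers. It was also chosen with these values in view, so the share is no support. HFD minus RD for Cyp2b9 was -0.35, -0.91, 0.04 and -0.72 (each ± 0.68) in LFPKO, LFKO, LPKO and WT livers, and the diet groups overlapped in each genotype. In LFKO livers that value was 0.16 without replicate 1 and -1.83 without replicate 3 of HFD LFKO. In LFPKO livers it was -0.77 without HFD LFPKO replicate 3 and 0.13 without RD LFPKO replicate 2, in LPKO livers -0.35 without HFD LPKO replicate 1 and 0.25 without HFD LPKO replicate 3, and in WT livers -1.15 without HFD WT replicate 1 and -0.42 without HFD WT replicate 2. The LFKO minus WT difference on HFD less that on RD was -0.19 ± 0.96; it was 0.87 without replicate 1 and -1.12 without replicate 3 of HFD LFKO.

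**Figure D1:**
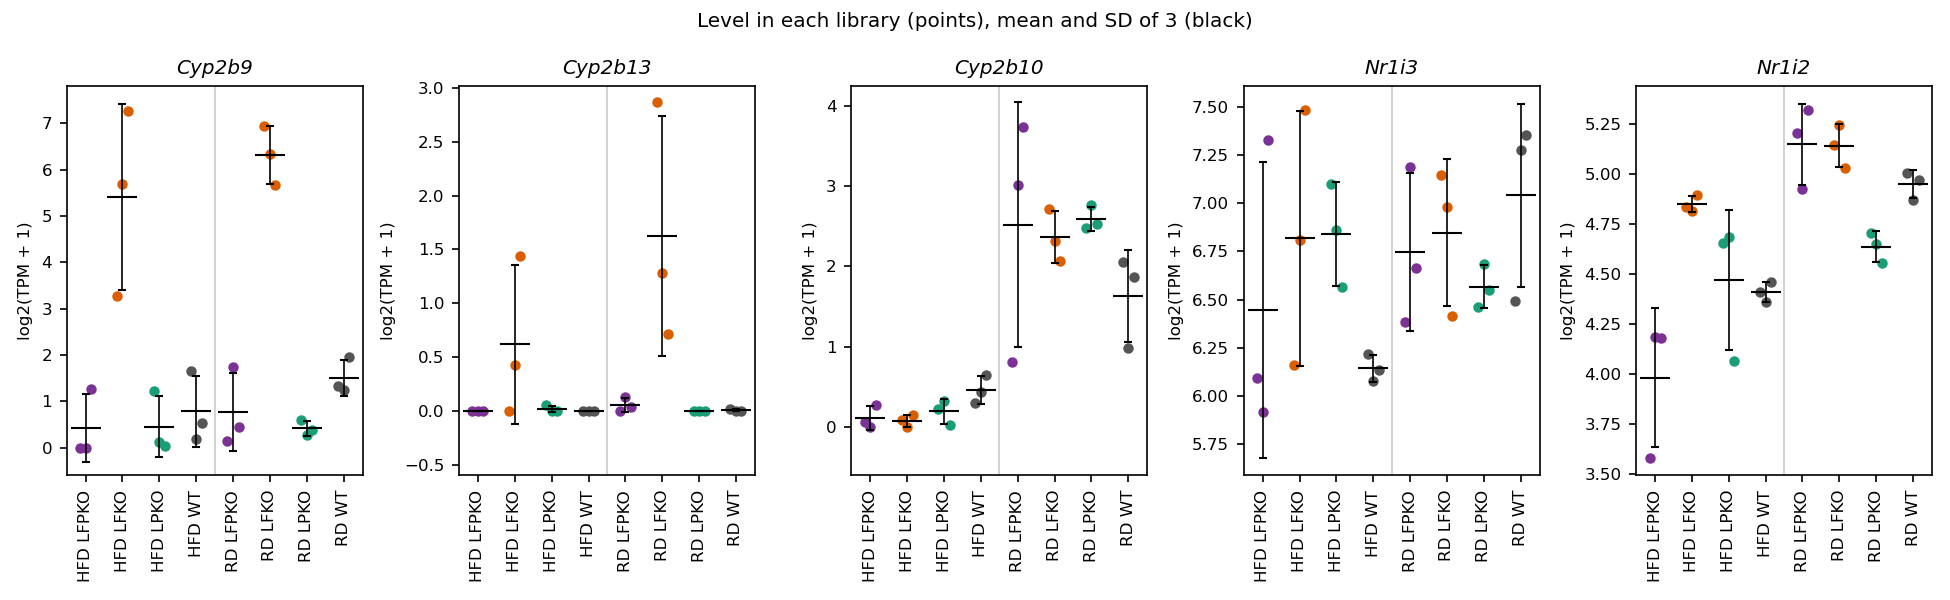
Level of Cyp2b9, Cyp2b13, Cyp2b10, Nr1i3 and Nr1i2 as log2(TPM + 1) on the vertical axes, which differ between panels, in 8 groups of 3 libraries (points; black bars give the mean and SD). Cyp2b9 stands between 8.69 and 153 TPM in LFKO libraries of both diets and at 2.85 TPM or less in all others, while Cyp2b10 is at 0.574 TPM or less in all HFD libraries.

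Cyp2b13, the closest relative of Cyp2b9, followed it at a far lower level. It was at 0, 0.339 and 1.71 TPM in LFKO livers on HFD, where WT livers were at 0 in all 3 libraries. On RD it was at 6.30, 1.43 and 0.644 TPM in LFKO livers, against 0.0142, 0 and 0 TPM in WT livers. In the 18 libraries of other genotypes it reached at most 0.0920 TPM. In the 5 LFKO libraries where it was above 0, its TPM was 0.669 to 5.19% of that of Cyp2b9. Its mean of 0.441 TPM over all libraries left it under the minimum of 1 TPM for testing, which the other 4 genes passed. Of the 31-base words of its annotated transcript, 40.8% also occur in other genes, 20% in Gm45225, 19.6% in Cyp2b9 and 14.96% in Cyp2b10. For Cyp2b9 26.1% are shared with any other gene (11.1% with Gm45225), and for Cyp2b10 19.4%. The division of reads among these genes is therefore uncertain, and the level of Gm45225 is not given here. Aligned transcripts were 91.7% identical between Cyp2b9 and Cyp2b13, 87.5% between Cyp2b9 and Cyp2b10 and 88.1% between Cyp2b10 and Cyp2b13. The remaining Cyp2b genes of the table were at or close to 0: Cyp2b19 reached 0.0868 TPM, Cyp2b23 0.0181 TPM, and the pseudogenes Cyp2b26-ps and Cyp2b27-ps were at 0 in all libraries.

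Cyp2b10, which encodes a P450 inducible by phenobarbital through CAR, divided the libraries by diet. On HFD it was at 0.0464, 0 and 0.216 TPM in LFPKO, 0.0643, 0 and 0.106 TPM in LFKO, 0.171, 0.256 and 0.0203 TPM in LPKO and 0.236, 0.353 and 0.574 TPM in WT livers. On RD it was at 0.760, 7.05 and 12.3 TPM in LFPKO, 5.57, 3.99 and 3.19 TPM in LFKO, 4.60, 5.77 and 4.76 TPM in LPKO and 3.17, 0.973 and 2.64 TPM in WT livers. All 12 HFD libraries stood below all 12 RD libraries, with medians of 0.138 and 4.29 TPM. The gap was narrow at its edge, since the lowest RD library was 1.33 times the highest HFD library. This order was shared by 218 of the 10551 tested genes (2.07%). Cyp2b10 was at 0.574 TPM or less in all HFD libraries, so it reached the testing minimum of 1 TPM only through RD livers. It was also chosen with these values in view, so the share is no support.

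HFD minus RD for Cyp2b10 was -2.41, -2.29, -2.39 and -1.17 (each ± 0.44, SE) in LFPKO, LFKO, LPKO and WT livers, and -2.32, -2.18, -2.26 and -1.04 rescaled. Groups separated downward in each of the 4, as they did for 38.0, 23.6, 39.8 and 46.4% of all tested genes in the same comparisons. In LFPKO livers the value rests on a wide RD group: it was -3.26 without RD LFPKO replicate 1 and -1.80 without RD LFPKO replicate 3. In terms of genotype, RD livers of all knockouts had more Cyp2b10 than WT on average, with 6.72 ± 5.80 TPM in LFPKO, 4.25 ± 1.22 TPM in LFKO, 5.04 ± 0.636 TPM in LPKO and 2.26 ± 1.14 TPM in WT livers (SD, n = 3 each). LFKO (0.73 ± 0.44) and LPKO (0.96 ± 0.44) did not overlap WT, and LFPKO did (0.89 ± 0.44, and 1.74 without its replicate 1 or 0.28 without its replicate 3). Without RD WT replicate 2 the differences were 0.56, 0.41 and 0.63 in LFPKO, LFKO and LPKO livers. Upward separation on RD was found for 19.4% of tested genes in LFKO, 19.2% in LPKO and 16.9% in LFPKO livers. On HFD all knockouts averaged less than WT, with log2 differences of -0.35 in LFPKO, -0.39 in LFKO and -0.27 in LPKO (each ± 0.44), at levels of 0.574 TPM or less; LFPKO and LFKO did not overlap WT, as for 4.94 and 2.08% of tested genes. The genotype by diet terms were -1.24, -1.12 and -1.23 (each ± 0.63) for LFPKO, LFKO and LPKO; that for LFPKO was -2.09 without RD LFPKO replicate 1 and -0.63 without RD LFPKO replicate 3.

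**Figure D2:**
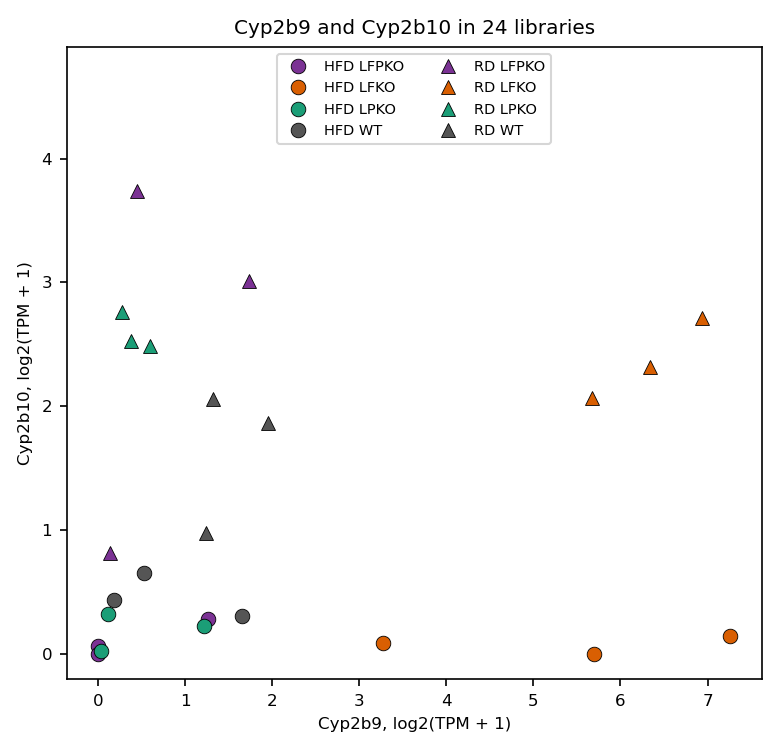
Cyp2b9 (horizontal) against Cyp2b10 (vertical), both as log2(TPM + 1), in 24 libraries; circles are HFD, triangles RD, and colours give the genotype. LFKO libraries lie to the right on both diets, HFD libraries lie at the bottom in all genotypes, and Pearson's r over all 24 is 0.087.

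Nr1i3, the gene of CAR, lay between 59.5 and 178 TPM in all libraries. On HFD it was at 67.4, 59.5 and 160 TPM in LFPKO, 70.6, 111 and 178 TPM in LFKO, 136, 115 and 93.6 TPM in LPKO and 73.4, 66.4 and 69.3 TPM in WT livers. On RD it was at 82.4, 145 and 100 TPM in LFPKO, 141, 125 and 84.5 TPM in LFKO, 87.2, 102 and 92.7 TPM in LPKO and 89.2, 154 and 163 TPM in WT livers. Group means ran from 135 ± 40.2 TPM in RD WT to 69.7 ± 3.49 TPM in HFD WT livers (SD, n = 3 each), and of neighbours in that order only RD LPKO and HFD WT did not overlap. HFD minus RD was -0.90 ± 0.34 in WT livers, where the groups did not overlap (46.4% of tested genes), and -0.56 rescaled. In LFPKO, LFKO and LPKO livers it was -0.30, -0.03 and 0.28 (each ± 0.34), with overlap, or -0.03, 0.11 and 0.53 rescaled, so that the LFKO value changed sign. On HFD the knockouts averaged more Nr1i3 than WT, by 0.30, 0.68 and 0.70 (each ± 0.34) in LFPKO, LFKO and LPKO livers, or 0.23, 0.44 and 0.57 rescaled, and only LPKO did not overlap WT (16.3% of tested genes separated upward). For LFPKO the difference was -0.14 without HFD LFPKO replicate 3, and for LFKO 0.34 without HFD LFKO replicate 3. On RD the same differences were -0.30, -0.19 and -0.48 (each ± 0.34), and all 3 knockouts overlapped WT. Without RD WT replicate 1 they were -0.57, -0.47 and -0.75. The LFPKO value was -0.12 without RD LFPKO replicate 1, the LFKO value 0.02 without RD LFKO replicate 3 and the LPKO value -0.32 without RD WT replicate 3.

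Nr1i2, the gene of PXR, lay between 11.0 and 38.9 TPM, with its lowest value and its lowest group mean in LFPKO livers on HFD. On HFD it was at 11.0, 17.2 and 17.1 TPM in LFPKO, 27.6, 27.2 and 28.8 TPM in LFKO, 24.2, 24.8 and 15.7 TPM in LPKO and 20.3, 19.5 and 21.0 TPM in WT livers. On RD it was at 35.9, 29.4 and 38.9 TPM in LFPKO, 34.4, 37.0 and 31.7 TPM in LFKO, 25.1, 24.1 and 22.5 TPM in LPKO and 31.2, 28.3 and 30.4 TPM in WT livers. HFD minus RD was -1.17, -0.29, -0.17 and -0.54 (each ± 0.16, SE) in LFPKO, LFKO, LPKO and WT livers. Rescaled, these were -0.91, -0.16, 0.08 and -0.21, so that of the 4 the LPKO value changed sign. The diet groups did not overlap except in LPKO livers. Downward separation by diet was found for 38.0, 23.6 and 46.4% of tested genes in LFPKO, LFKO and WT livers. On HFD, LFPKO livers had less Nr1i2 than WT (-0.43 ± 0.16; -0.23 without HFD LFPKO replicate 1) and than LFKO (-0.87 ± 0.16), and LFKO livers had more than WT (0.44 ± 0.16; 0.21 rescaled), each without overlap. In those HFD comparisons, in the order given, 4.94, 17.0 and 24.6% of tested genes separated in the same direction. On RD, LFPKO exceeded LPKO (0.51 ± 0.16), LFKO exceeded WT (0.19 ± 0.16) and LPKO was below WT (-0.31 ± 0.16), each without overlap. For these, 5.11, 19.4 and 10.1% of tested genes separated in the same direction. By mean TPM the order was RD LFPKO, RD LFKO, RD WT, HFD LFKO, RD LPKO, HFD LPKO, HFD WT and HFD LFPKO, and neighbours separated only between RD LFKO and RD WT, HFD LFKO and RD LPKO, and HFD WT and HFD LFPKO.

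**Figure D3:**
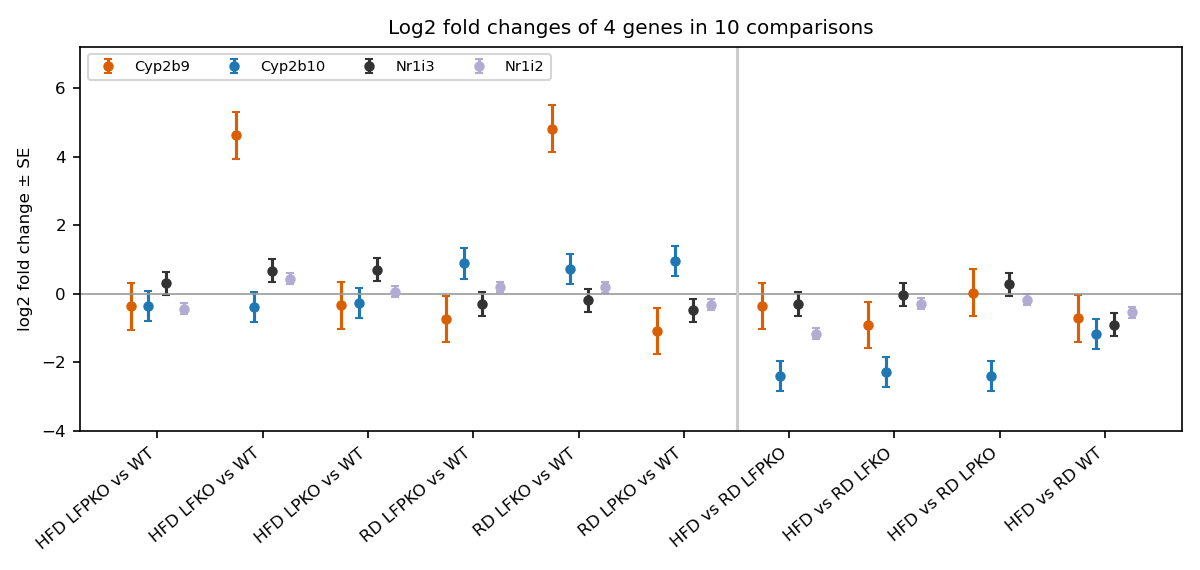
Log2 fold change (vertical, ± SE) of Cyp2b9, Cyp2b10, Nr1i3 and Nr1i2 in 10 comparisons: each knockout against WT on HFD and RD, left of the grey line, and HFD against RD in each genotype, right of it. Cyp2b9 stands apart in LFKO against WT (4.62 on HFD, 4.82 on RD) and Cyp2b10 in HFD against RD (-2.41 to -1.17).

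The listed targets of CAR and PXR were largely lower on HFD, as Cyp2b10 was. Of 47 listed genes of drug oxidation, conjugation and transport, 40 passed the filter on low values. With limma and Benjamini-Hochberg adjustment over all tested genes, 27, 22, 21 and 24 of the 40 were called lower in LFPKO, LFKO, LPKO and WT livers at an adjusted p under 0.05. Over all tested genes, 24.9, 8.34, 17.3 and 29.8% were called lower. One target was called higher, the sulfotransferase gene Sult5a1 in WT livers (0.92 ± 0.33, adjusted p = 0.0394), with 1.05% of all genes called higher there; that call was lost with no filter. Cyp2c55, Gsta1 and Abcb1a averaged under 1 TPM over the HFD libraries and so passed the filter through RD livers; of the other 37, 24, 20, 19 and 22 were called lower. Rescaled, 24, 19, 15 and 17 of the 40 were called lower, beside 7.96, 6.59, 3.64 and 4.09% of all tested genes. The median over the 40 was -1.18, -0.91, -0.80 and -1.04, beside the medians of all genes given above. In all 4 genotypes 18 of the 40 were called lower, while 4.20% of all tested genes were. Of the 18, 13 kept the call in every genotype after rescaling, under which 0.626% of all tested genes were called lower in each.

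Some markers of liver cell types were also called lower on HFD. So were 24.9, 8.34, 17.3 and 29.8% of all tested genes in LFPKO, LFKO, LPKO and WT livers. The counts below are without rescaling. Of 9 hepatocyte markers, 6, 1, 1 and 5 were called lower on HFD in LFPKO, LFKO, LPKO and WT livers. Their summed level was 49305 to 68506 TPM on HFD and 74747 to 89637 TPM on RD in LFPKO livers, 80540 to 110467 and 110305 to 117660 TPM in LFKO, 56372 to 83565 and 75841 to 84192 TPM in LPKO, and 51297 to 67870 and 90375 to 93110 TPM in WT livers. Of 9 stellate cell markers 7 were tested, and 6 of them (Col1a1, Dcn, Ecm1, Lrat, Pdgfrb and Reln) were called lower on HFD in WT livers, while 0 were called in LFPKO, LFKO and LPKO livers. The stellate sum was 108 to 149 TPM on HFD and 160 to 185 TPM on RD in LFPKO livers, 167 to 188 and 168 to 222 TPM in LFKO, 122 to 182 and 153 to 188 TPM in LPKO, and 83.1 to 125 and 188 to 277 TPM in WT livers. Of 9 markers each of Kupffer and endothelial cells, Marco was called lower in WT and Stab1 in LFPKO livers, and Cidec was the one fat cell marker called, lower in LFPKO livers. Of 7 cholangiocyte markers 3 were tested and 0 were called, and 0 of 7 lymphocyte markers passed the filter. The part of these markers in the target changes was not tested.

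Cyp3a11, the main PXR-inducible drug-oxidising P450 of mouse liver, was at 80.4 ± 29.2 TPM on HFD and 4147 ± 531 TPM on RD in LFPKO livers, and at 298 ± 50.8 TPM on HFD and 1599 ± 1506 TPM on RD in WT livers (SD, n = 3 each). Its log2 changes were -5.74, -4.93, -4.70 and -2.03 (each ± 0.52) in LFPKO, LFKO, LPKO and WT livers, with limma adjusted p of 1.25e-06, 9.68e-06, 2.91e-05 and 0.00885; the call in WT livers was lost after rescaling. The glutathione transferase gene Gstm3 fell in all 4, with log2 changes of -3.82, -3.46, -3.80 and -2.68 (each ± 0.31) in LFPKO, LFKO, LPKO and WT livers, and Gsta1, of the same enzyme class, with -3.93, -2.89, -2.66 and -3.15 (each ± 0.37). Cyp2c55, an arachidonic-acid-oxidising P450 induced through CAR and PXR, fell by 2.94, 3.11, 2.43 and 2.01 (each ± 0.21) in LFPKO, LFKO, LPKO and WT livers. The other genes called lower in all 4 were the P450 genes Cyp2a5, Cyp2c29, Cyp3a25 and Cyp3a59, the hydrolase genes Ces2a and Ephx1, the glutathione transferase genes Gsta2, Gsta4, Gstm1, Gstm2 and Gstm4, the glucuronosyltransferase gene Ugt2b36 and the transporter genes Abcc3 and Slco1a4. Por, the electron donor of microsomal P450s, was not called in any genotype (log2 changes of -0.44, 0.66, 0.54 and 0.34). Several of these families hold near-identical copies, so the division of reads within a family is uncertain. No target differed in its diet change between a knockout and WT by limma's interaction term with adjustment. At an unadjusted p under 0.05 there were 1 higher and 9 lower for LFPKO (4.74 and 2.81% of all tested genes), 4 and 7 for LFKO (11.0 and 1.25%), and 4 and 3 for LPKO (5.54 and 2.53%). With any single library left out, at most 1 target was called in each of these terms. Over all tested genes the share called higher was 0, 0 and 0.114% and the share called lower 0.0284, 0.00948 and 0.0569% in LFPKO, LFKO and LPKO.

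**Figure D4:**
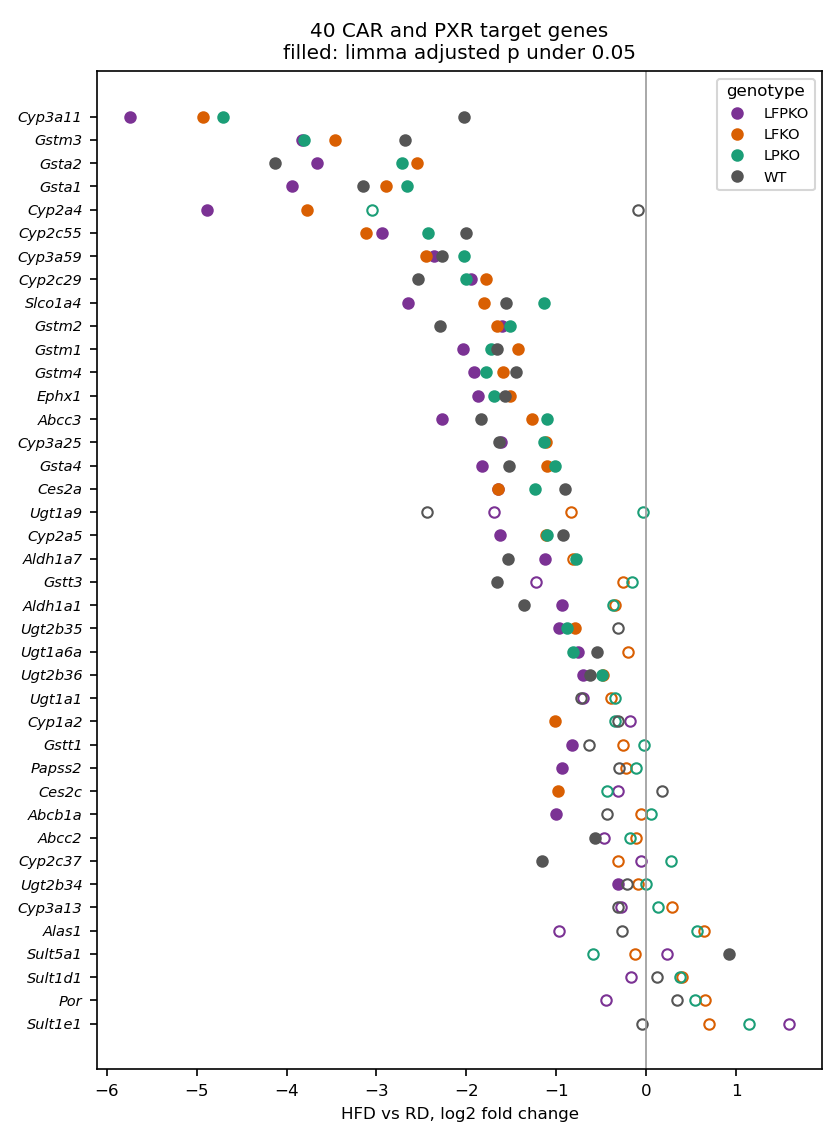
Log2 fold change of HFD over RD (horizontal) of the 40 tested CAR and PXR target genes (rows, ordered by their mean change) in 4 genotypes (colours); filled circles mark a limma adjusted p under 0.05. Cyp3a11 lies farthest to the left, with -5.74 in LFPKO livers, and 18 genes are filled in all 4 genotypes.

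Between genotypes, fewer targets were called, mostly higher in the knockouts. On RD, 10 rose and 1 fell in LFPKO, 7 rose and 1 fell in LFKO and 6 rose in LPKO livers, each against WT, where 4.00, 1.07 and 3.52% of all genes were called higher and 3.45, 0.597 and 2.33% lower. Cyp2c55 (1.52, 1.37 and 1.01, each ± 0.21) and Gstm3 (2.14, 1.68 and 1.85, each ± 0.31) were called higher in all of LFPKO, LFKO and LPKO livers (limma adjusted p at most 0.00476). Cyp2a4, a steroid 15α-hydroxylase gene that is also on the female-predominant list below, averaged 269, 231 and 113 TPM in LFPKO, LFKO and LPKO livers and 0.172 TPM in WT livers on RD. Cyp2a4 and Abcb1a passed the filter through the groups where they were higher, so that their calls are no support; of the other 38 targets, 9 rose and 1 fell in LFPKO, 6 rose and 1 fell in LFKO and 5 rose in LPKO livers. Cyp2c37, another P450 gene, was the one that fell, by 2.38 ± 0.33 in LFPKO and 1.44 ± 0.33 in LFKO livers (limma adjusted p = 9.36e-05 and 0.0292); the LFKO call was lost with no filter and without any single RD WT replicate or RD LFKO replicate 2 or 3. The count of 8 for LFKO on RD was 3 without RD LFKO replicate 2 or 3 or RD WT replicate 2 or 3, and 5 without RD LFKO replicate 1, any RD LPKO replicate, RD LFPKO replicate 2, HFD LFPKO replicate 2 or 3, HFD LFKO replicate 2 or HFD WT replicate 3. The count of 11 for LFPKO on RD was 7 without RD WT replicate 2 or 3.

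On HFD, 1 target rose and 2 fell in LFPKO, 13 rose in LFKO and 6 rose in LPKO livers against WT, beside 1.62, 12.7 and 3.60% of all genes called higher and 1.47, 0.730 and 1.13% lower. Without Cyp2a4 and Abcb1a, 11 of the other 38 rose in LFKO livers, and the LFPKO and LPKO counts were as given. Rescaled, the counts were 1 and 3 in LFPKO (2.24 and 3.28% of all tested genes), 3 and 1 in LFKO (2.55 and 1.72%), and 2 and 0 in LPKO livers (3.68 and 3.21%). Beside these values, Alb and the stellate markers Dcn, Ecm1 and Lrat were called higher in LFKO than in WT livers on HFD; their part in the target changes was not tested. Gstm2 was called higher in each of LFPKO, LFKO and LPKO (1.37, 1.19 and 1.34, each ± 0.27; the LFKO call was lost without HFD LFKO replicate 2 or 3 or HFD WT replicate 2), and the bile acid and drug uptake gene Slco1a4 in LPKO (2.03 ± 0.36, limma adjusted p = 0.00167). Cyp3a11 (-1.94 ± 0.52, limma adjusted p = 0.0418) and Cyp2c37 (-1.28 ± 0.33, limma adjusted p = 0.0339) fell in LFPKO livers, and both calls were lost with no filter. The 13 for LFKO became 1 without HFD LFKO replicate 3 or HFD WT replicate 2, 4 without HFD LFKO replicate 2 and 22 without HFD LFKO replicate 1. The 6 for LPKO became 2 without HFD LPKO replicate 1, and the 3 for LFPKO became 1 without HFD WT replicate 1 or 3.

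Genes whose proteins work with CAR and PXR, such as retinoid X receptors, chaperones, coactivators and co-repressors, were examined as a list of 31 tested genes. By diet, 1 was called higher and 5 lower in LFPKO, 1 and 3 in LFKO, 1 and 2 in LPKO and 1 and 3 in WT livers, where 1.35, 1.11, 0.777 and 1.05% of all genes were called higher and 24.9, 8.34, 17.3 and 29.8% lower. The 6 called in LFPKO livers became 2 without HFD LFPKO replicate 1 and 3 without RD LFPKO replicate 2. The 4 in LFKO livers became 0 without RD LFKO replicate 2, 1 without RD LFKO replicate 3 and 2 without HFD LFKO replicate 1. The 3 in LPKO livers became 0 without RD LPKO replicate 1 and 1 without RD LPKO replicate 3. The 4 in WT livers became 0 without HFD WT replicate 2 or RD WT replicate 3, 10 without HFD LFKO replicate 1, 8 without HFD LFPKO replicate 1 and 7 without HFD LFKO replicate 3. Against WT, 1, 0 and 0 were called in LFPKO, LFKO and LPKO livers on RD and 0, 2 and 1 on HFD, all higher, beside the shares of all genes given above for the targets. Where limma called 0, those with an unadjusted p under 0.05 were 3 higher and 0 lower for RD LFKO (10.6 and 4.89% of all tested genes), 3 and 2 for RD LPKO (12.1 and 6.70%), and 0 and 1 for HFD LFPKO (9.77 and 4.32%), and these 0 calls held with any single library left out. Foxa3, a forkhead factor of hepatocytes, rose in LFPKO livers on RD (0.66 ± 0.16, limma adjusted p = 0.0175), a call lost without RD WT replicate 2 or 3 or RD LFPKO replicate 2. Ahr, the aryl hydrocarbon receptor gene, was called higher on HFD in LFKO (0.76 ± 0.23, limma adjusted p = 0.0346) and LPKO livers (0.83 ± 0.23, limma adjusted p = 0.0366), and in neither case after rescaling. The 2 calls for HFD LFKO became 0 without any single HFD WT replicate or HFD LFKO replicate 2 or 3, 1 without RD LFKO replicate 3 or RD LPKO replicate 3, and 7 without HFD LFKO replicate 1. The 1 for HFD LPKO became 0 without HFD LPKO replicate 1 or 2 or HFD WT replicate 1 or 3, and 2 without HFD LPKO replicate 3 or RD LFKO replicate 2. The 1 for RD LFPKO became 2 without HFD LFPKO replicate 1 or 3, HFD LFKO replicate 1 or HFD LPKO replicate 3. By diet, Ppp2cb, a catalytic subunit of protein phosphatase 2A, the enzyme that releases CAR to the nucleus, fell by 0.61, 0.45, 0.48 and 0.41 (each ± 0.11) on HFD in LFPKO, LFKO, LPKO and WT livers (limma adjusted p at most 0.0166), though the LPKO and WT calls were lost after rescaling.

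Cyp2b9 and Cyp2b13 are among the genes known to be expressed more in female liver, and a list of other such genes was examined beside one of male-predominant genes. The labels used here do not state the sex of the mice, and its part in the values of these lists was not tested. In LFKO against WT livers on HFD, 7 of 10 tested female-predominant genes rose and 11 of 21 male-predominant genes fell, beside 12.7% of all genes called higher and 0.730% lower. On RD 5 of 10 rose, and 9 of 21 fell while 1 rose, beside 1.07% and 0.597%. The medians of the female-predominant genes were 1.30 on HFD and 1.51 on RD, and those of the male-predominant genes -1.54 and -1.14, with all genes at 0.21 and 0.03. Cyp2a4, Cyp2c69, Slc22a26 and Nipal1 passed the filter through the groups where they were higher, so that their calls are no support (averages under 1 TPM outside those groups or in WT livers); of the other 6 female-predominant genes, 4 rose on HFD and 2 on RD, with medians of 1.47 and 0.58. Abcd2, a peroxisomal fatty acid transporter gene, rose on both diets (2.48 and 1.95, each ± 0.38, limma adjusted p = 0.00069 and 0.00797). Slc22a26, an organic anion transporter gene, averaged 1.81 TPM in LFKO and 0.0272 TPM in WT livers on HFD, and 5.98 TPM in LFKO and 0.488 TPM in WT livers on RD. Of 2 P450 genes of female liver, Cyp2c69 averaged 0.524 TPM in LFKO and 0.306 TPM in WT livers on HFD, and 36.6 TPM in LFKO and 1.99 TPM in WT livers on RD. Cyp2c40 averaged 2.004 TPM in LFKO and 1.62 TPM in WT livers on HFD, and 115 TPM in LFKO and 6.27 TPM in WT livers on RD, where it was called higher (4.13 ± 0.61). Among male-predominant genes Susd4 (-1.54 and -1.77, each ± 0.22) and the pheromone-binding Mup12 (-1.97 and -3.08, each ± 0.38) fell on both diets, and the transporter gene Slco1a1 rose on RD (1.04 ± 0.19). On HFD the 7 female-predominant calls were 2 or 3 without any single HFD WT replicate, HFD LFKO replicate 2 or HFD LFKO replicate 3, and 2 rescaled, and the 11 male-predominant calls were 3 without HFD WT replicate 2 or HFD LFKO replicate 3. Of those 6 other female-predominant genes, 1 rose in LFPKO and 2 in LPKO livers against WT on HFD. Of all genes, 1.62 and 3.60% were called higher there. On RD 1 of the 6 rose in LFPKO and 1 fell in LPKO livers, beside 4.00% called higher and 2.33% lower.

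Against LFKO livers, LFPKO livers showed 4 female-predominant genes lower and 11 male-predominant genes higher on HFD, and 4 lower and 7 higher on RD, with 8.74 and 3.13% of all genes called lower and 1.85 and 1.95% higher. Of the 6 female-predominant genes that passed the filter in other groups too, 3 were lower on HFD and 2 on RD. Abcd2 (-2.92 on HFD and -2.79 on RD, each ± 0.38) fell on both diets, and Serpina12, a serpin gene of male liver, rose (2.55 and 2.08, each ± 0.33). Cyp2b9 differed in the same direction as Abcd2 (-4.99 and -5.55). By mean TPM, the female-predominant genes Cyp17a1 and Cyp2a4 were higher in LFPKO than in LFKO livers on both diets. Cyp17a1 was at 43.5 against 28.8 TPM on HFD and 54.1 against 25.5 TPM on RD. Cyp2a4 was at 24.2 against 18.9 TPM on HFD and 269 against 231 TPM on RD. The rest of that tested list averaged lower in LFPKO livers on both diets. On HFD the 4 female-predominant calls became 2 without HFD LFKO replicate 3 or HFD LFPKO replicate 1. The 11 male-predominant calls became 5 without HFD LFKO replicate 3 and 6 without HFD LFPKO replicate 1 or 2. Of the 40 CAR and PXR targets, 4 were called higher and 8 lower on HFD, and 1 higher and 0 lower on RD. The RD call was Sult1e1, an oestrogen sulfotransferase gene (2.59, limma adjusted p = 0.0419), and it was lost without RD LFPKO replicate 2 or 3, any RD LFKO replicate, RD WT replicate 2 or 3, HFD LFKO replicate 2 or HFD WT replicate 1. The HFD count of 12 was 19 without HFD LFKO replicate 1 and 7 without HFD LFKO replicate 3.

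The 5 tested genes most like each of the 5 genes were named by Pearson's r of log2(TPM + 1) over the 24 libraries, so that r joins differences between groups with those within them; no p is given. For Cyp2b9 they were Slc22a27 (r = 0.95, Spearman's rho = 0.81), Abcd2 (0.95 and 0.87), Tcf24 (0.92 and 0.71), Cyp2a22 (0.91 and 0.74) and Mgll (0.91 and 0.78). These hold a pair of transporter genes, a transcription factor gene, a P450 gene and the gene of monoglyceride lipase. For Cyp2b13 they were Slc22a26 (0.84), Slc22a27 (0.82), Cyp2a22 (0.82), Cyp2b9 (0.82) and Raet1e (0.80). Cyp2b9 and Slc22a26 passed the filter through the groups where they were higher, so that their likeness to Cyp2b13 is no support. Slc22a27 averaged 1.06 TPM over all libraries, near the minimum of 1 TPM. For Cyp2b10 the 5 were Cyp3a11 (r = 0.89, rho = 0.86), Gstm3 (0.88 and 0.75), Klhl21 (0.87 and 0.87), Cyp2c55 (0.87 and 0.76) and Gstm1 (0.86 and 0.81), of which all but Klhl21 are on the CAR and PXR list. Within groups, r of Cyp2b10 was 0.14 with Cyp3a11, 0.17 with Gstm3, 0.39 with Klhl21, -0.07 with Cyp2c55 and 0.29 with Gstm1. Over the 8 group means it was 0.95 to 0.99 with these 5. Cyp2b10 was at 0.574 TPM or less in all HFD libraries, so its spread within those groups is near the floor. For Cyp2b9, r within groups was 0.76 with Slc22a27, 0.83 with Abcd2, 0.51 with Tcf24, 0.83 with Cyp2a22 and 0.57 with Mgll.

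Nr1i3 was most like Zg16, Atxn7, Uroc1, Dmac2 and Atp6v0d2 (r = 0.82 to 0.84), and Nr1i2 was most like Dbi, Alg5, Cbr1, Syap1 and Guk1 (0.88 to 0.92). Over the 24 libraries, Nr1i3 had an r of 0.22 with Cyp2b10 and 0.43 with Cyp2b9 (0.22 without the 2 libraries farthest from the median of Cyp2b9, so that the value rests in part on those, and 0.33 without the 2 farthest in Nr1i3), and Nr1i2 had 0.59 and 0.49. Within groups Nr1i2 had an r of 0.14 with Cyp2b10 and 0.14 with Cyp2b9. Nr1i3 had, within groups, an r of 0.81 with Cyp2b9 and 0.23 with Cyp2b10. In HFD LFKO livers, for instance, replicates 1, 2 and 3 had 70.6, 111 and 178 TPM of Nr1i3 beside 8.69, 50.7 and 153 TPM of Cyp2b9. Correlations of 2 genes within a library share that library's composition, and the Mup share of the same 3 replicates was 17.7, 10.9 and 6.52%; its part in the relation was not tested.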

How the data were processed

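RNA from snap-frozen liver was extracted with Trizol and made into strand-marked polyadenylated libraries, per the labels' protocols. The authors deposited gene-level TPM, made with kallisto per the submitters' processing notes, which list both GRCm38 and mm10 as builds. Its version and annotation were not given in the sources used here. Each library sums to between 956785 and 993524 TPM, and 1 row without a gene name (0.0104 to 0.0250%) was left out. TPM keeps no read counts, so depth is unknown, and the spread among the 3 libraries of a group sets the precision.

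Values were changed to log2(TPM + 1) and genes with a mean of at least 1 TPM over all libraries were tested (10551 of 34945). limma 3.58.1 in R 4.3.3 fitted 1 mean per group over all 24 libraries (16 residual degrees of freedom, trended variance) for 19 comparisons, two-sided, with Benjamini-Hochberg adjustment within a comparison and calls at an adjusted p under 0.05. Rescaling used median-of-ratios factors. With 3 libraries in each group, exact permutation could not reach a p below 0.1, so it was not used. The 5 genes, the gene lists and the comparisons were chosen with earlier results of these data known. From each list, up to 4 called genes with the smallest adjusted p in a comparison, called genes against the direction of most, and the 5 genes most like each of the 5 could be named; the full set of targets called lower in all 4 genotypes and Por were named after their values were seen.

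The fit was repeated with rescaling, with 0.1 TPM as pseudocount, with no filter or one at a mean of 5 TPM, without Mup and mitochondrial transcripts, on the compared groups alone, with the replicate number as a block, and without each library in turn. The fit was tested on simulated data. Transcripts and positions came from GENCODE M21 and promoters from RefSeq (Biopython 1.88); plots used matplotlib 3.10.9 (Python 3.11.15).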

Additional observations from a re-analysis of the deposited data

Results flagged for a closer look

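Opposite directions without overlap of the groups were found for 3 of the 5 genes; none of these contrasts between directions was tested. Cyp2b9 was higher in LFKO than in WT livers on RD (log2 difference 4.82) and lower in LPKO than in WT livers (-1.09). Cyp2b10 was lower in LFKO than in WT livers on HFD (-0.39) and higher on RD (0.73). Nr1i2 was higher in LFKO (0.19) and lower in LPKO livers (-0.31) than in WT livers on RD. On HFD Nr1i2 was lower in LFPKO (-0.43) and higher in LFKO livers (0.44) than in WT livers. Of all 10551 tested genes, 1.47% separated both upward in LFKO and downward in LPKO livers on RD, as Cyp2b9 and Nr1i2 did, 0.142% as Cyp2b10 did and 1.27% as Nr1i2 did on HFD. The Cyp2b10 values on HFD rest on levels of 0.574 TPM or less. Cyp2b9 passed the filter through LFKO livers and Cyp2b10 through RD livers. All 5 genes were also chosen with these values in view, so the shares are no support for any of them. Shares are given only for the patterns that were found.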

How the results depend on the processing

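After rescaling, 3 small differences of overlapping groups changed sign: Nr1i3 in LFKO and Nr1i2 in LPKO livers by diet, and Nr1i2 in LPKO against WT on HFD. With a pseudocount of 0.1 TPM, Cyp2b9 was 5.95 in HFD LFKO against WT, and LFPKO minus LFKO was -7.37 on HFD and -7.03 on RD; Cyp2b10 HFD minus RD was -4.67, -4.82, -4.50 and -2.18 in LFPKO, LFKO, LPKO and WT livers, since levels near 0 weigh more. Nr1i2 in HFD LFKO against WT was 0.21 rescaled and 0.16 without Mup and mitochondrial transcripts, and its HFD minus RD in WT livers -0.21 and -0.19. Called CAR and PXR targets for RD LFKO against WT were 5 with a pseudocount of 0.1, with no filter and with a mean of at least 5 TPM (8 as reported); for RD LPKO 11 with the compared groups alone (6); for HFD LFKO 5 with no filter, 4 rescaled, 5 without Mup and mitochondrial transcripts and 3 with the compared groups alone (13); for HFD LPKO 2 rescaled and 3 with the compared groups alone (6); for HFD LFPKO 1 with no filter and 6 without Mup and mitochondrial transcripts (3). For LFPKO against LFKO they were 4 on HFD with the compared groups alone (12), and on RD 4 rescaled, 3 without Mup and mitochondrial transcripts and 5 with the compared groups alone (1). Female-predominant calls for HFD LFKO against WT were 2 with no filter or rescaled and 3 with a mean of at least 5 TPM or the compared groups alone (7), and for RD 3 with a mean of at least 5 TPM (5). For LFPKO against LFKO they were 1 with a mean of at least 5 TPM and 2 with the compared groups alone on HFD (4), and 8 with no filter and 2 with a mean of at least 5 TPM on RD (4). Male-predominant calls for LFKO against WT were 6 without Mup and mitochondrial transcripts on HFD (11) and on RD (10), a setting that drops the Mup genes of the list, and 3 with the compared groups alone on HFD; for LFPKO against LFKO they were 1 with the compared groups alone on HFD (11) and 3 without Mup and mitochondrial transcripts on RD (7). Other causes were not tested. Leaving out each library in turn gave 3.70 to 5.69 for Cyp2b9 in HFD LFKO against WT, -6.06 to -4.06 for HFD LFPKO minus LFKO and -3.26 to -1.80 for Cyp2b10 HFD minus RD in LFPKO livers. The target counts ranged over 7 to 13, 3 to 10 and 4 to 8 for LFPKO, LFKO and LPKO on RD, and over 1 to 4, 1 to 22 and 2 to 9 on HFD. Deviations of same-numbered libraries correlated at -0.23 to 0.39 over 84 pairs (median -0.004). Those of other-numbered libraries correlated at -0.38 to 0.25 over 168 pairs (median 0.0007). With 3 libraries in each group, these ranges cannot settle whether the replicate numbers pair the libraries. Because every group holds replicates 1, 2 and 3, a replicate block cannot change a log2 difference, only its SE. For Cyp2b9 in RD LFKO against WT the difference was 4.82, with an SE of 0.70. With the block, 1 count of these changed by over 1.5 times, the RD LFPKO against LFKO targets, with 0 in place of 1.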
